A study of Mus musculus with 4 samples.

Results

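Ribosomal protein genes were followed in a shin muscle of the mouse, the tibialis cranialis, after AAV8 ProMyo or saline. A gene was taken as a member when its symbol had the form Rpl or Rps and a number, with an a, x, y or l and a further number allowed after it, or was Rplp0, Rplp1, Rplp2 or Rpsa. At least 1 probe set (a group of short oligos that reads a transcript) had to carry that symbol alone. This rule gave 49 genes among 18193 genes with such a probe set, 25 of them named for the large ribosomal subunit and 23 for the small one, paralogues included. Rpl3l, a paralogue of Rpl3 in striated muscle, was kept apart as the remaining 1.

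The 8 mice were male C57Bl/6 and ate a high fat diet from 8 weeks of age. After 4 weeks on the diet, the muscle of 1 leg received AAV8 ProMyo, an adeno-associated virus that carries the myostatin propeptide, an inhibitor of the growth inhibitor myostatin. The same muscle of the other leg received saline, and both were collected 10 weeks after injection, at 22 weeks of age. RNA of animals 1-4 and of animals 5-8 was mixed in equal amounts, so each group had 2 arrays, each of 4 pooled animals. Saline muscle received no empty vector, so the vector and the propeptide cannot be told apart, and the promoter of the vector is not given in the sources used here. Values are log2 expression per probe set, and differences are ProMyo minus saline on that scale.

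A ribosome joins a small subunit, which reads the messenger RNA, to a large subunit, which forms the peptide bonds. Each is ribosomal RNA covered with many small basic proteins. In mammals their messenger RNAs begin with a C and a run of pyrimidines, the 5' terminal oligopyrimidine (TOP) tract, through which mTORC1 and the protein Larp1 tune their translation more than their amount. Loss of myostatin signalling is known to raise muscle protein synthesis. Whether AAV8 ProMyo changed the amounts of these transcripts is the question addressed here.

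Start sites of the members were searched for the TOP tract and for CCGGAAG, a motif of ETS family factors. In RefSeq windows of assembly GRCm38.p6, 41 of the 47 members tested below had a window of 300 bases (250 before the annotated start, 50 after). Rpl7, Rpl8, Rps14, Rps20, Rps29 and Rps4l had none. The windows of 7 members are shown because they hold both features, the tract without the motif in the stretch printed, or neither, and because Rpl27, Rpl7a, Rps28 and Rpl3l carry the differences described further down. Each runs 5' to 3' on the gene's strand, from 45 bases before the annotated start to 15 bases into the transcript, so the transcript begins at the last 15 letters. Rpl3l has another annotated start, with a stretch at chr17:24732640-24732699 that holds neither feature and is not printed. Capitals mark the motif CCGGAAG on either strand (CTTCCGG when read from the other) and a tract that begins with C exactly at the start and runs on for at least 4 more pyrimidines.
Rpl38 (chr11:114668535-114668594, + strand): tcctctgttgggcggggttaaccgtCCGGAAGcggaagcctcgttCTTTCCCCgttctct
Rps10 (chr17:27635230-27635289, - strand): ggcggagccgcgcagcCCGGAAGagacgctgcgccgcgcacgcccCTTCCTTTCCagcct
Rps6 (chr4:86857353-86857412, - strand): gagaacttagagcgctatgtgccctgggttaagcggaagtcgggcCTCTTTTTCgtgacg
Rpl7a (chr2:26910762-26910821, + strand): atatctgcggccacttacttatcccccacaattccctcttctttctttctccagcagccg
Rpl27 (chr11:101442200-101442259, + strand): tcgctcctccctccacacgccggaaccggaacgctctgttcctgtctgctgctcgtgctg
Rps28 (chr17:33824548-33824607, - strand): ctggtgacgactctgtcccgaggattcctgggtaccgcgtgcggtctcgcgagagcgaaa
Rpl3l (chr17:24727781-24727840, + strand): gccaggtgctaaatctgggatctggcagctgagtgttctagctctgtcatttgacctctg

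The tract stood exactly at an annotated start in 8 of the 41 members, or 19.5%, against 3.01% of 27025 genes in the same table. The windows of 20 members, or 48.8%, held CCGGAAG on either strand, against 9.93% of all genes. Rpl7a shows a pyrimidine run that crosses its annotated start without beginning there, so the count depends on how exactly the start is annotated. The 8 members with the tract (Rpl14, Rps27, Rpl35, Rpl38, Rplp2, Rps18, Rps10 and Rps6) differed between ProMyo and saline muscle by -0.33 to 0.10, with a median of -0.01. The other 33 differed by -0.43 to 0.45, also with a median of -0.01. Members with CCGGAAG had a median of -0.02 and those without it 0.08. A match describes letters in a window and not the binding of a factor.

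Not every ribosomal protein could be followed. Of 77 standard ribosomal protein genes that the symbols cover, 41 were tested, Rpl37 and Rps16 were read only by probe sets below the filter on dim signals, and 34 had no probe set with a single symbol. Of these 34, 24 belong to the large subunit, Rpl3 and the stalk protein Rplp1 among them, and 10 to the small subunit. Ribosomal protein genes have many near-identical processed pseudogenes, and even the probe sets used here can read more than 1 copy. Besides the 41 standard genes, the paralogues Rpl3l, Rpl7l1, Rpl22l1, Rpl39l, Rps27l and Rps4l were tested, which made 47.

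The arrays were alike in their medians (1.06 to 1.11 on the log2 scale), but the saline array of animals 5-8 stood apart. Its spiked hybridization controls averaged 11.1 against 10.1 to 10.2 elsewhere, and its upper quartile was 2.97 against 3.15 to 3.19. Bacillus control probe sets, with no target in the sample, reached at most 0.99 and mark the background. All 10 skeletal muscle fibre markers, such as Acta1 and Des, had means over the arrays of 9.26 or more, and in both pools 9 of them were higher after ProMyo (median difference 0.14). Of 9 fibroblast markers 7 were lower in both pools (median -0.10), and of 9 macrophage markers 4 were lower and 1 higher (median -0.31). Over all genes tested, 29.0% were higher and 24.0% lower in both pools. The 4 T and B cell markers had means of 0.52 to 1.33, near the background. In whole muscle, fewer cells of a type and less RNA per cell cannot be told apart, and the part of these shifts in the results was not tested.

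The measured differences in ribosomal protein transcripts between ProMyo and saline muscle were small. A mean difference of 1.5-fold in either direction was reached by 0 of 47 members, against 4.93% of 15102 genes, and one of that size in the same direction in both pools by 0 of 47, against 1.60%. The range ran from -0.43 for Rpl12, which was on background on 3 arrays, to 0.45 for Rpl27. Among the 44 members above the Bacillus controls on all arrays the lowest was -0.33 for Rpl14. The 24 large subunit genes had a median difference of -0.02 and the 22 small subunit genes one of -0.08, against 0.01 over all genes tested. Rpl3l differed by 0.23. By limma's test with Benjamini-Hochberg adjustment 0 of 47 members passed the threshold of 0.05 (background 0.00%, smallest adjusted p = 0.82), and 0 of 47 had an unadjusted p under 0.05, which 5.79% of all genes had. For 28 members the 95% interval of the difference lay within 1.5-fold both ways, as it did for 30.7% of all genes. For the other 19, Rpl27, Rps28 and Rpl3l among them, it did not, so with 2 arrays a group these data do not bound their difference below that size. The members are brighter than most genes: 38 of 47 had a mean of 7 or more, as did 1393 of 15102 genes. Their median standard error was 0.173, against 0.193 over all genes. The part of signal level in the shares set against all genes was not tested.

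**Figure D1:**
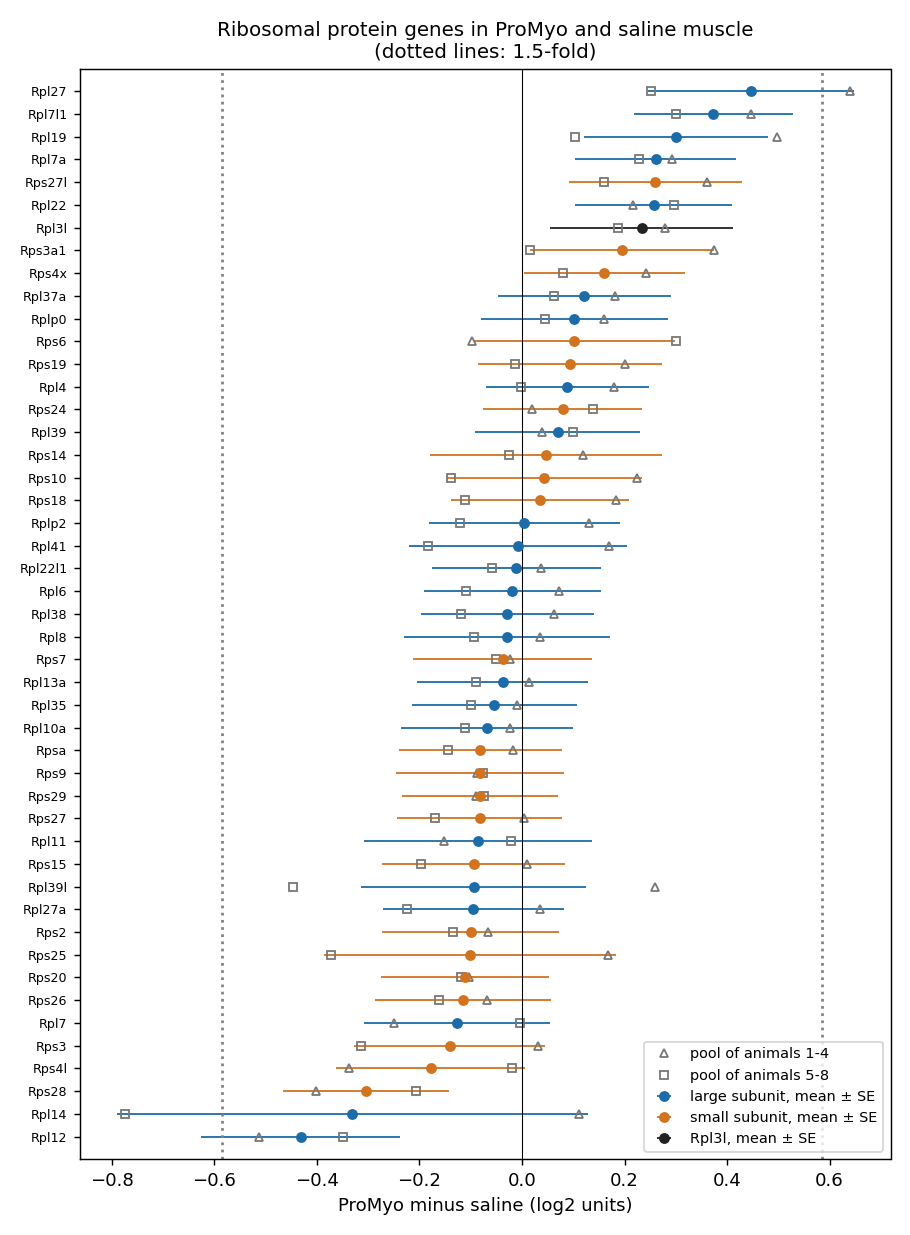
Difference between ProMyo and saline muscle (log2 units, x axis) for each of the 47 genes tested (y axis), as the mean with its standard error from limma (filled circles) and within each pool of animals (open symbols); dotted lines mark 1.5-fold. All 47 means lie between the dotted lines, from -0.43 for Rpl12 (on background on 3 of 4 arrays) to 0.45 for Rpl27, and triangles (animals 1-4) mostly lie to the right of squares (animals 5-8).

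The direction of the family differed between the pools of animals. In animals 1-4, 32 of 47 members were higher in the ProMyo leg, against 48.0% of all genes, and the median difference was 0.09 for the large and 0.01 for the small subunit. In animals 5-8, 14 of 47 were higher, against 54.4% of all genes, with medians of -0.07 and -0.09. Thus 13 members were higher in both pools, 14 lower in both and 20 split, where 29.0% of all genes were higher in both and 24.0% lower in both. The members' shares of 27.7% and 29.8% lie near these. The large subunit had 8 genes higher and 5 lower in both pools, and the small subunit 4 higher and 9 lower. With each array centred on its median, 7 members were higher in both pools and 10 lower, and with quantile normalization 11 and 18. The shares over all genes were not counted in these settings.

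The array of ProMyo muscle from animals 1-4 gave the highest value for 27 of 47 members, and that of ProMyo muscle from animals 5-8 for 2. Over all genes these shares were 27.6% and 21.5%. Measured from each gene's mean over the arrays, the large subunit stood at 0.11 and -0.10 on these arrays, and at 0.04 and -0.05 in saline muscle of animals 1-4 and 5-8. The small subunit stood at 0.06, -0.11, 0.05 and -0.01 in the same order. The medians of both subunits were thus lowest in ProMyo muscle of animals 5-8. Without that array the medians were 0.13 for the large and 0.035 for the small subunit, against 0.031 over all genes. Then 29 members were higher and 7 lower in both remaining comparisons. Without the ProMyo array of animals 1-4 the medians were -0.13 and -0.12, against -0.006 over all genes, with 27 members lower and 10 higher. In each case both comparisons used the same remaining ProMyo array, so part of their agreement is built in. The shares over all genes were not counted for these comparisons. The family median therefore had no sign that held with each ProMyo array left out.

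**Figure D2:**
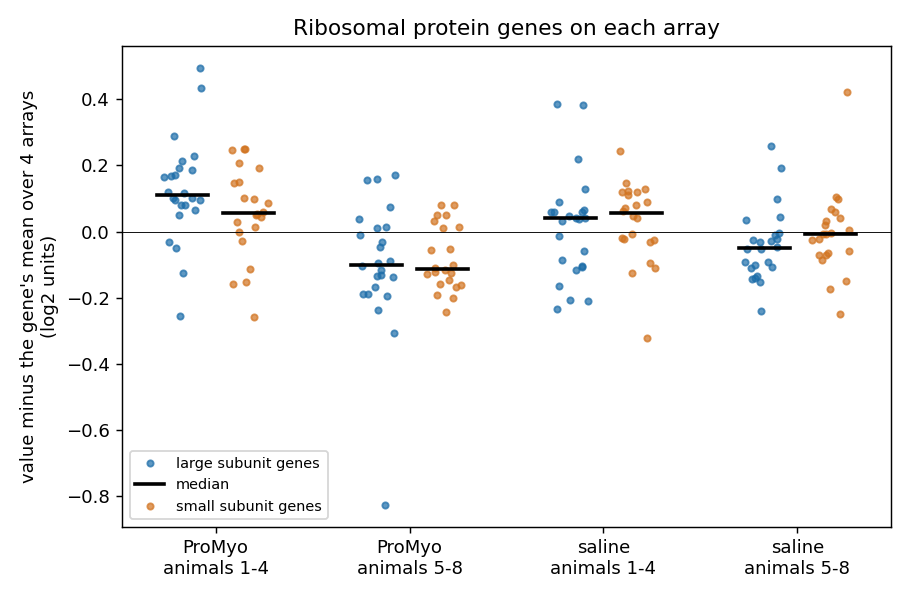
Each point is 1 ribosomal protein gene on 1 array, as its log2 value minus its own mean over the 4 arrays (y axis), for large and small subunit genes (colours); bars are medians. The bars lie at 0.11 and 0.06 on the ProMyo array of animals 1-4 and at -0.10 and -0.11 on that of animals 5-8, a wider gap than between the saline arrays.

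RNA quality measures varied over the same arrays. The log2 value of the 3' minus the 5' probe set of Gapdh was 0.58 on the ProMyo array of animals 1-4, 0.74 on that of animals 5-8, and 0.90 and 0.81 on the saline arrays of animals 1-4 and 5-8. For Actb it was 1.64, 1.72, 1.96 and 1.80. Lower values mean more signal far from the 3' end, and the ProMyo array of animals 1-4 was lowest for both genes. For both genes, both ProMyo arrays also lay below both saline arrays. In the comparison of ProMyo with saline, this measure and the treatment therefore cannot be told apart. The middle probe set for 18S ribosomal RNA, which unlike these messengers is part of the small subunit itself, stood at 6.97 and 6.53 in the ProMyo legs against 6.91 and 6.59 in the saline legs. It was higher in animals 1-4 than in animals 5-8 in both legs, and the treatments overlapped. The 5' probe set, at 1.90 and 1.503 in the ProMyo legs and 1.23 and 1.47 in the saline ones, was higher in both ProMyo arrays and did not follow that order of the pools. The 3' probe set read 3.30 to 3.37 on the 4 arrays. The part of these measures in the members' levels was not tested.

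Rpl27, a large subunit protein (eL27 in the common naming), had the highest difference. It stood at 8.59 (animals 1-4) and 8.17 (animals 5-8) in the ProMyo legs, against 7.95 and 7.92 in the saline legs. Both ProMyo arrays lay above both saline arrays, by 0.64 in animals 1-4 and 0.25 in animals 5-8. The difference was 0.45 ± 0.20 (log2 ± SE, n = 2 arrays per group), or 1.36-fold, and missed the threshold (limma, adjusted p = 0.83). Its other probe sets differed by 0.30 and 0.41, and on all 3 the groups did not overlap.

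Rpl7a, a large subunit protein, stood at 9.86 and 9.75 in the ProMyo legs against 9.57 and 9.52 in the saline legs. The groups did not overlap, and the difference of 0.26 ± 0.16 was close in both pools, at 0.29 and 0.23. Rpl22, a large subunit protein that also binds other RNAs, stood at 8.04 and 8.09 in the ProMyo legs against 7.83 and 7.80 in the saline legs. Here too the groups were apart at the brightest probe set, by 0.26 ± 0.15, but its other probe sets differed by -0.02 and 0.05 and overlapped, and the mean of its probe sets differed by 0.10. Rpl19, which forms a bridge to the small subunit, read 8.85 and 8.57 against 8.35 and 8.47, a difference of 0.30 ± 0.18 that was 0.50 in animals 1-4 and 0.10 in animals 5-8. None of the 3 passed (limma, adjusted p = 0.84 for each).

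The lowest differences of the large subunit belonged to dim probe sets. Rpl12 stood at 0.64 and 0.46 in the ProMyo legs against 1.15 and 0.81 in the saline legs and was above the Bacillus controls on 1 of 4 arrays, so its difference of -0.43 has no certain size. Rpl14 stood at 2.25 and 0.93 in the ProMyo legs against 2.14 and 1.70 in the saline legs. Its ProMyo arrays enclosed its saline arrays, and the difference was -0.33 ± 0.46. Rpl7 (-0.13 ± 0.18) and Rpl27a (-0.10 ± 0.18), which are bright, overlapped between the groups. The mean of the probe sets of Rpl27a, which takes in a dim second one, differed by -0.33. This dim probe set read 1.25 and 1.33 in the ProMyo legs against 2.83 and 0.89 in the saline legs. It was above the Bacillus controls on 3 of 4 arrays and differed by -1.57 in animals 1-4 and 0.44 in animals 5-8. Rpl11, which can bind the p53 regulator Mdm2, differed by -0.09 ± 0.22. The stalk proteins, which draw elongation factors to the ribosome, differed by 0.10 ± 0.18 for Rplp0 and 0.005 ± 0.19 for Rplp2. The value of Rplp2 was -0.018 with quantile normalization and -0.023 with median centring. Rpl4, the brightest large subunit gene, differed by 0.09 ± 0.16.

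Rps28, a small subunit protein near the exit of the messenger RNA, had the lowest difference of the small subunit. It stood at 9.43 and 9.44 in the ProMyo legs against 9.83 and 9.65 in the saline legs. The ProMyo legs were the lower ones in each pairing of arrays. The difference was -0.30 ± 0.16 (log2 ± SE, n = 2 arrays per group), -0.40 in animals 1-4 and -0.21 in animals 5-8, and missed the threshold (limma, adjusted p = 0.83). Its other probe sets differed by -0.27 and -0.16, again with no overlap, so Rps28 went against Rpl27 on the same arrays.

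The other small subunit genes lay closer together. Rps29, the brightest of them, differed by -0.08 ± 0.15 and Rpsa, also known as the laminin receptor, by -0.08 ± 0.16, each with both ProMyo arrays below both saline arrays. A dim second probe set of Rpsa stood at 1.68 and 1.75 in the ProMyo legs against 1.49 and 1.03 in the saline legs, which is the other direction. Rps3 (-0.14 ± 0.19), at the entry of the messenger RNA, Rps26 (-0.12 ± 0.17) and Rps20 (-0.11 ± 0.16) were lower in the mean, and their groups overlapped. On the higher side, Rps3a1 stood at 9.60 and 9.30 in the ProMyo legs against 9.23 and 9.28 in the saline legs, a difference of 0.20 ± 0.18 that was 0.38 in animals 1-4 and 0.02 in animals 5-8. Rps4x, encoded on the X chromosome, differed by 0.16 ± 0.16, while its dim second probe set differed by -0.55. Rps6, the target of the S6 kinases downstream of mTORC1, read 5.18 on both ProMyo arrays and 5.28 and 4.88 in saline muscle (0.10 ± 0.20). Rps19, mutated in Diamond-Blackfan anaemia, differed by 0.09 ± 0.18.

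In all, 10 members had both ProMyo arrays above both saline arrays (Rpl27, Rpl7l1, Rpl19, Rpl7a, Rps27l, Rpl22, Rpl3l, Rps3a1, Rps4x and Rps24) and 4 had them below (Rpl12, Rps28, Rps29 and Rpsa). These are 21.3% and 8.51% of the members, against 17.8% and 15.7% of all genes. Of the 22 members with more than 1 probe set above the Bacillus controls on all arrays, 12 had all their probe sets on 1 side of zero and 10 had them on both. Probe sets of 1 gene share the arrays and are not replicates. Rps10, with 5 probe sets all between 0.005 and 0.19, and Rps29, with 3 between -0.12 and -0.05, show how closely such readings can lie. Rps24 shows the opposite, with 4 bright probe sets between 0.07 and 0.12 and a dim one above the background at -0.60.

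**Figure D3:**
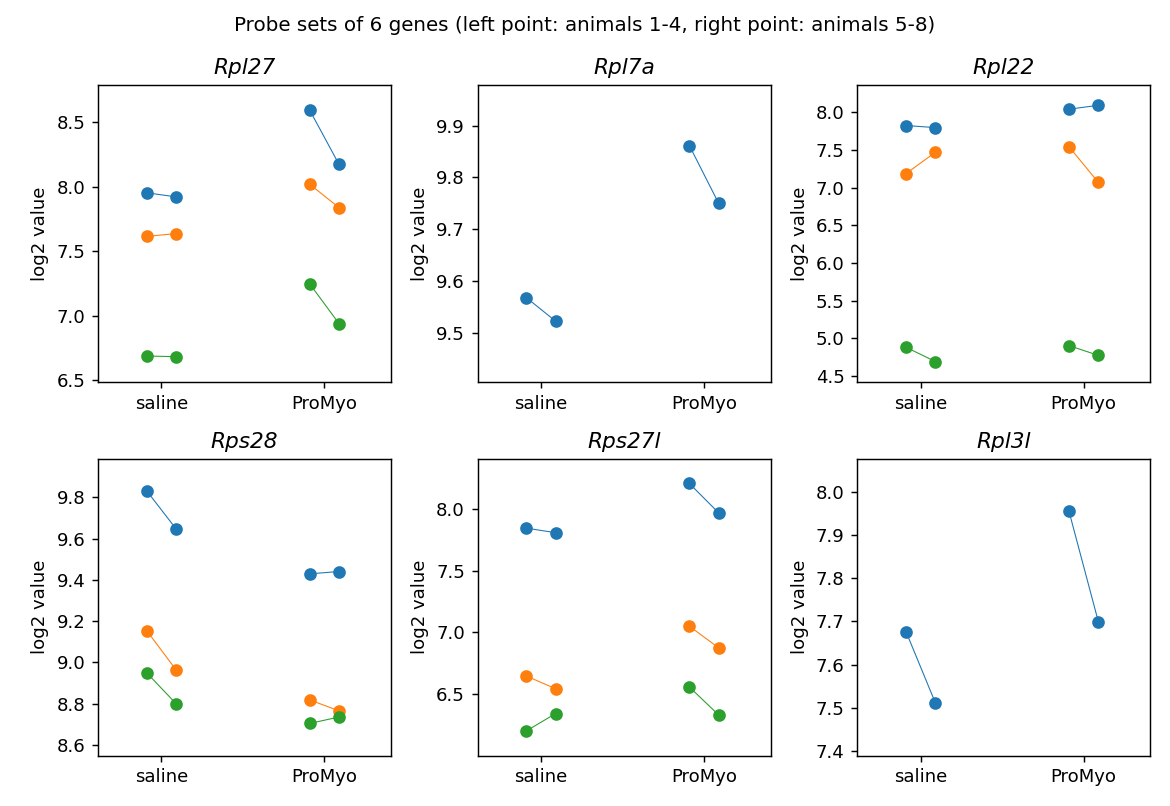
Log2 values (y axis, own scale in each panel, not starting at 0) of every probe set above the filter for 6 genes in saline and ProMyo muscle; colours are probe sets, and joined points are animals 1-4 (left) and 5-8 (right) of a group. The 3 probe sets of Rpl27 are higher in ProMyo muscle and the 3 of Rps28 lower, by 0.30 to 0.45 and 0.16 to 0.30, while those of Rpl22 disagree.

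Rpl3l encodes a form of Rpl3, a protein near the peptidyl transferase centre, and takes its place in ribosomes of skeletal muscle and heart. It stood at 7.95 (animals 1-4) and 7.70 (animals 5-8) in the ProMyo legs, against 7.68 and 7.51 in the saline legs. Both ProMyo values lay above both saline values, the lower ProMyo value by a narrow margin. The difference was 0.23 ± 0.18 (log2 ± SE, n = 2 arrays per group), 0.28 in animals 1-4 and 0.19 in animals 5-8. It missed the threshold (limma, adjusted p = 0.86), and its 95% interval ran from -0.22 to 0.69. With an array left out it lay between 0.11 and 0.36. Rpl3 itself had no probe set with 1 symbol, so a switch between both forms was not analysed here. Of the 10 fibre markers, 9 were higher after ProMyo in both pools as well, Atp2a1 was not (-0.07), and their part in the Rpl3l value was not tested.

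The other paralogues did not share a direction. Rps27l, a paralogue of Rps27 and a p53 target, stood at 8.20 and 7.96 in the ProMyo legs against 7.84 and 7.80 in the saline legs, a difference of 0.26 ± 0.17, with 0.37 and 0.17 at its other probe sets. At the last of these the groups overlapped. Rps27 itself read 2.72 to 2.89 on the 4 arrays, at a dim probe set that was its only one above the filter, and differed by -0.08 ± 0.16. The levels of Rps27 and Rps27l come from different probe sets and were not compared. Rpl7l1, a relative of Rpl7, read 4.44 and 4.39 against 3.99 and 4.09, a difference of 0.37 ± 0.16 (limma, adjusted p = 0.82), the smallest p of the family. A second probe set of Rpl7l1 differed by 0.25 and a dimmer one by -0.51, and the mean of its probe sets differed by 0.036. Rpl22l1, the relative of Rpl22, differed by -0.01 ± 0.16. Rpl39l and Rps4l read between 0.45 and 1.08 and lay within the Bacillus controls on 1 and 2 arrays.

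**Figure D4:**
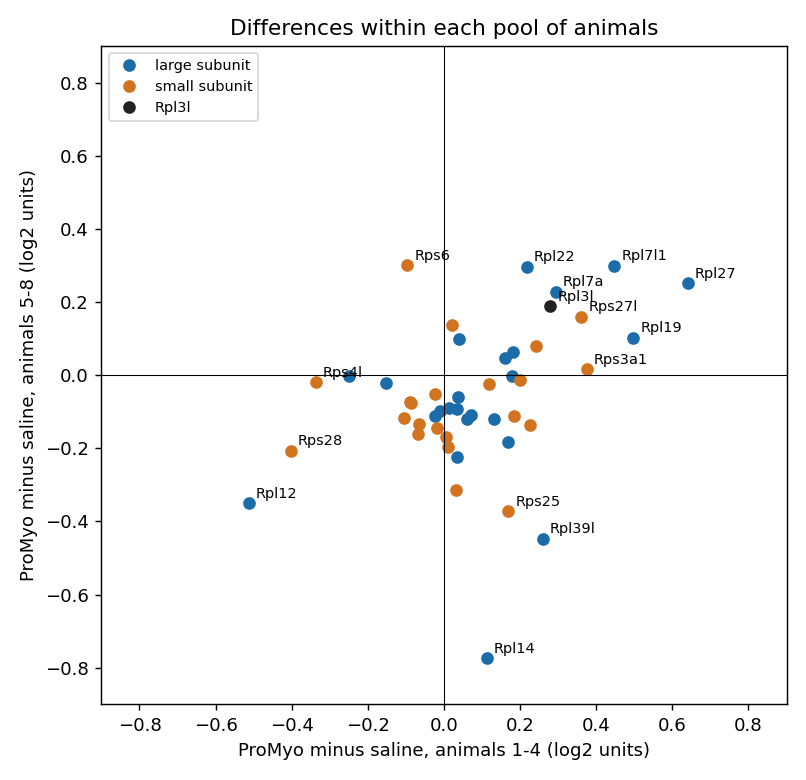
Difference between ProMyo and saline muscle (log2 units) in animals 1-4 (x axis) against animals 5-8 (y axis) for the 47 genes, coloured by subunit. The 13 genes at the upper right, Rpl27 and Rpl3l among them, were higher in both pools, the 14 at the lower left, Rps28 among them, lower in both, and the 20 others split, most of them higher in animals 1-4 only.

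Genes that work with the ribosomal proteins were listed apart. Fau, which encodes a small subunit protein fused to a ubiquitin-like one, was the 1 of 5 further constituents that was measured, and differed by -0.07 ± 0.17. Of 16 other measured genes with TOP messengers, such as elongation factors, 6 were higher and 1 lower in both pools, with a median of 0.06 and none past the threshold. The counts are 37.5% and 6.25% of that list, against 29.0% and 24.0% of all genes. Nap1l1, a nucleosome assembly protein, stood at 8.35 and 8.26 in the ProMyo legs against 7.74 and 7.86 in the saline legs (0.51 ± 0.16). Hnrnpa1, an RNA-binding protein, read 5.64 and 5.63 against 6.22 and 5.99 (-0.47 ± 0.17). Eif3e, a subunit of an initiation factor, differed by 0.34 ± 0.19. The elongation factors Eef1a1 and Eef2 differed by 0.15 ± 0.15 and 0.03 ± 0.16.

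Of 16 measured regulators, 6 were higher and 3 lower in both pools, with a median of 0.07 and none past the threshold. The counts are 37.5% and 18.8% of that list, against 29.0% and 24.0% of all genes. Ltv1, an assembly factor of the small subunit, stood at 4.64 and 4.84 in the ProMyo legs against 4.33 and 3.94 in the saline legs (0.61 ± 0.20, limma, adjusted p = 0.82). Eif4ebp1, which restrains cap-dependent translation, read 5.03 and 5.12 against 5.76 and 5.28 (-0.44 ± 0.21), and both genes had separate groups. Rptor, a subunit of mTORC1, differed by -0.17 ± 0.16, Mlxip, a glucose-sensing transcription factor, by 0.30 ± 0.26, and Tsc2, an inhibitor of mTORC1, by 0.28 ± 0.22. Mtor and Larp1 differed by -0.02 ± 0.16 and 0.09 ± 0.16. The 76 mitochondrial ribosomal protein genes, whose products form the ribosome inside mitochondria, had a median of 0.13, with 37 higher and 13 lower in both pools and none past the threshold. The counts are 48.7% and 17.1% of the set, against 29.0% and 24.0% of all genes. The members of this set with the smallest p, Mrpl22, Mrpl19 and Mrps35, differed by 0.51 ± 0.17, 0.40 ± 0.16 and 0.47 ± 0.19. The set was highest on the ProMyo array of animals 1-4 in 48 of 76 cases, or 63.2%, against 27.6% of all genes. The medians of the set were positive in both pools, at 0.14 and 0.06, where those of the cytosolic subunits changed sign. The difference between these sets was not tested.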

How the data were processed

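The authors deposited log2 expression values per probe set, which the submitters' processing notes tie to RMA and Affymetrix Expression Console, without versions. No label names the log base, so base 2 was taken from RMA's usage and the range of values. Array medians near 1 are low for RMA output, and what further step may have been applied is not given in the sources, so the absolute scale, and with it the size of a fold, is uncertain. Per the labels' protocols, Tri-reagent RNA was amplified and labelled with Nugen kits. Of 45101 probe sets, 34945 had 1 gene symbol, 932 several and 9160 none; 64 array controls were left out. By gene identifier, 34741 probe sets matched RefSeq symbols of GRCm38.p6 and none changed. Each gene was read at its brightest probe set by the mean of the 4 arrays, and means below the 25th percentile (0.45) were dropped, which left 15102 genes.

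ProMyo and saline were compared with limma 3.58.1 (R 4.3.3; lmFit and eBayes, without pairing; 2 residual and 3.16 prior degrees of freedom), with Benjamini-Hochberg adjustment over all genes. Arrays have no read depth; their number limits the precision, with a median standard error of 0.19. P-values measure the spread between pools. No 2 arrays were identical over all probe sets, though single values recur, such as 5.18 for Rps6 on both ProMyo arrays. Correlations between arrays were 0.984 to 0.991. Both legs of the same mice were pooled alike, so the pools are paired by design; deviations of same-numbered pools correlated with r = 0.16 across genes. The members and lists were chosen with earlier results of these data known. Named genes were Rpl3l, the paralogues, Rplp0, Rplp2, Rpsa, the 5 highest and 5 lowest differences and the brightest and dimmest gene of each subunit, members without a test, and the genes with the smallest p of each ribosome-related list (up to 3, for regulators 5). Rpl11, Rps10, Rps24, Rps27, Eef1a1, Eef2, Mtor and Larp1 were named after their values were seen. The names of the other genes without a probe set of 1 symbol are not reported here.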

Additional observations from a re-analysis of the deposited data

How the results depend on the processing

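With the paired pools as a replicate block, 0 members passed limma's threshold. The same held with the trend model, other filters, quantile normalization, median centring and other probe set choices. In each of these settings 0 of all genes tested passed too. There was thus no call to change, and the count does not set the members apart. With each array left out in turn, the large subunit median ran from -0.13 to 0.13 and the small subunit median from -0.12 to 0.035. Members higher in both comparisons ran from 10 to 29 and members lower from 7 to 27. These values rest on 3 arrays, so both comparisons share the array left alone in its group. The shares over all genes were not counted. Median centring gave 7 members higher in both pools, and probe sets designed for a single transcript gave 7 higher and 6 lower, with 22 members tested. The Rpl3l difference stayed positive in all settings run, from 0.11 to 0.36. Rpl3l has only 1 probe set above the filter, so the model, filter and probe set choices could not move its difference. Both its ProMyo arrays lay above both saline arrays, so leaving out an array could not change the sign. Quantile normalization gave 0.17 and median centring 0.21. Direction changed for Rpl22 with single-transcript probe sets (-0.022), and for Rplp2 with median centring (-0.023) and quantile normalization (-0.018). With the mean of probe sets it changed for Rps20 (0.050), Rps4x (-0.20) and Rpsa (0.19). Each of these means takes in a dim probe set on the other side of zero, at 0.43 for Rps20, -0.55 for Rps4x and 0.45 for Rpsa. The dim one of Rps20 was above the Bacillus controls on 1 array, and its bright ones differed by -0.11 and -0.17. Why probe sets of a gene differ was not tested. Without a change of direction, the mean of probe sets moved Rpl7l1 from 0.37 to 0.036, Rpl22 from 0.26 to 0.10 and Rpl27a from -0.10 to -0.33, and single-transcript probe sets moved Rps3 from -0.14 to -0.011. With an array left out, it changed in the ranges of Rpl14 (-0.99 to 0.33), Rpl22l1 (-0.10 to 0.082), Rpl27a (-0.24 to 0.047), Rpl39l (-0.31 to 0.12), Rpl7 (-0.28 to 0.027), Rplp0 (-0.039 to 0.24), Rplp2 (-0.16 to 0.17), Rps19 (-0.053 to 0.24), Rps3 (-0.31 to 0.032) and Rps6 (-0.10 to 0.30). Counting only members above the Bacillus controls on all arrays, an alternative chosen after seeing the data, gave 13 higher and 12 lower in both pools. These are 29.5% and 27.3% of such members, against 31.0% and 23.3% of all genes above those controls on all arrays.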

Other observations

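Probe sets that carry several symbols, at least 1 of them fitting the rule, were used in no comparison and name no gene. Of these, 99 lay above the filter and above the Bacillus controls on all arrays. Their median difference was -0.03, with 16 higher and 34 lower in both pools and 49 split. The first counts are 16.2% and 34.3%, against 31.0% and 23.3% of all genes above the Bacillus controls on all arrays. In animals 1-4, 55.6% of these probe sets were higher in ProMyo muscle, against 47.9% of those genes. In animals 5-8, 26.3% were higher, against 57.9%. These probe sets share arrays, and in part transcripts, with the genes described above, so they are not independent of them.

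At dim second probe sets, the difference sometimes ran against the brightest one: -0.60 at Rps24, -0.55 at Rps4x, -0.51 at Rpl7l1 and 0.45 at Rpsa. What these probe sets detect was not analysed.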
